A study of Strigamia maritima with 9 samples.

Results

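On native DNA of the centipede *Strigamia maritima*, 915 of 21205 merged binding regions carried a called peak of CopiaMBD1 and none of CopiaMBD2 or CopiaMBD3. These 915 regions, the regions of CopiaMBD1 alone, were selected on the authors' peak calls: the native peak lists of the 3 domains were pooled and peaks that shared at least 1 bp were merged. Each of them turned out to be a single CopiaMBD1 peak. They were 12.3% of the 7461 native CopiaMBD1 peaks (exact Clopper-Pearson 95% interval 11.5 to 13.03) and 4.32% of all merged regions.

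A methyl-CpG binding domain is a protein module that recognises DNA whose CpG cytosines are methylated, and in animals proteins that carry it connect methylated DNA to complexes that modify chromatin. Copia elements are retrotransposons that copy themselves through RNA and do not usually carry such a domain. The 3 CopiaMBD domains come from members of a Copia family of this centipede that acquired one.

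DNA affinity purification sequencing (DAP-seq) maps where a protein made in vitro binds naked genomic DNA. DNA from adult tissue of the strain behind the genome sequence was sheared to a mean of 200 bp, offered to a CopiaMBD domain fused to a HaloTag (a protein tag used to pull the complex down), and what it bound went through 20 PCR cycles. The groups used here are CopiaMBD1, CopiaMBD2 and CopiaMBD3 on native DNA, the same domains on DNA copied for 11 PCR cycles before binding (amplified DNA, whose copies carry no methyl groups by design), and the HaloTag alone on each DNA kind as control. Every group held 1 library, so no comparison below has a replicate or a test, and "alone" means that no peak of the other domains was called, not that they were shown not to bind. The amount of protein offered and the methylation of each region were not analysed here. Neither were the genes, repeats and DNA sequence at the regions.

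Depth on native DNA was 2239324 tags at unique positions for CopiaMBD1, 2224965 for CopiaMBD2 and 2044955 for CopiaMBD3, against 4050757 for the HaloTag alone. The tag length read by the peak caller was 62 bp for CopiaMBD1, 53 bp for CopiaMBD2 and 62 bp for CopiaMBD3. The peak lists differed far more in length than the libraries in depth, with 7461 peaks for CopiaMBD1, 14001 for CopiaMBD2 and 15714 for CopiaMBD3. The weakest peak called had a pileup of 8 fragments for CopiaMBD1 and 7 for each other domain. Reads carried no molecular identifier, and the peak caller kept 1 tag per position to limit PCR copies. With 1 library per group, every interval given here covers counting error only.

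Regions of CopiaMBD1 alone were small and weakly enriched sites. The strength of a CopiaMBD1 peak was measured in the library that also chose the regions, so these values describe the set and are not evidence for it. Fold enrichment is the authors' ratio of the pileup, the number of fragments over the summit, to the local level of the HaloTag-only control, with 1 fragment added to each. Its median was 4.02 (interquartile range 3.48 to 4.60, lowest 1.76, highest 8.96) in regions of CopiaMBD1 alone, against 4.39 over the 6546 CopiaMBD1 peaks that touched a peak of another domain. Split by partner, the CopiaMBD1 median was 4.18 where CopiaMBD2 was the only partner, 4.18 where it was CopiaMBD3 and 4.48 (3.65 to 5.48, highest 15.7) in regions of all 3 domains. The interquartile ranges overlapped, and the highest values lay further apart than the medians.

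Strongly enriched peaks were scarcer in the regions of CopiaMBD1 alone. A fold of at least 5 was reached by 127 of 915 of them (13.9%), against 23.7% of CopiaMBD1 peaks shared with CopiaMBD2 only, 20.3% of those shared with CopiaMBD3 only and 33.3% of the 4888 in regions of all 3 domains. A −log10 q of at least 10, where q is the peak caller's false discovery rate, was reached by 27 of 915 (2.95%), against 10.6, 5.37 and 22.3% in these 3 sets of shared peaks. Median pileup was 13 fragments (interquartile range 11 to 16, highest 105), against 15 with CopiaMBD2 only, 14 with CopiaMBD3 only and 18 in regions of all 3 domains.

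**Figure D1:**
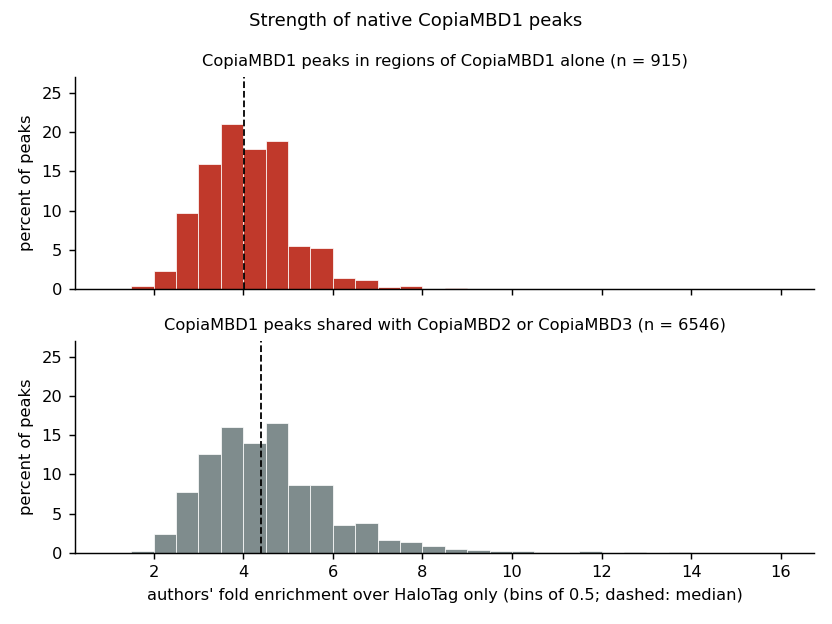
Fold enrichment of native CopiaMBD1 peaks over the HaloTag-only control (x axis, bins of 0.5) as the percent of peaks (y axis), for the 915 peaks in regions of CopiaMBD1 alone (top) and the 6546 shared with another domain (bottom), with dashed lines at the medians of 4.02 and 4.39. Both sets have most of their peaks between 3 and 5, and the upper set has 1 peak at 8 or above.

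The regions were also narrow. Their median width was 165 bp (148 to 198, widest 659 bp), against 178 bp for CopiaMBD1 peaks shared with CopiaMBD2 only, 176 bp for those shared with CopiaMBD3 only and 214 bp for those in regions of all 3 domains. Regions of CopiaMBD2 alone (169 bp) and CopiaMBD3 alone (174 bp) were about as narrow. Together the 915 regions covered 166 kb, or 0.0958% of the effective genome size set by the authors. The narrowest CopiaMBD1 peak was 145 bp wide, which is the fragment length the peak caller estimated for this library. Of the regions of CopiaMBD1 alone, 190 (20.8%) had exactly that width, against 11.5 and 15.9% of CopiaMBD1 peaks shared with CopiaMBD2 only and with CopiaMBD3 only and 5.75% of those in regions of all 3 domains.

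Within the CopiaMBD1 list, the share of peaks that were alone changed little up to a fold of 5 and dropped above it. It was 14.3% (113 of 792, interval 11.9 to 16.9) below a fold of 3, 15.3% (339 of 2212) from 3 to 4 and 14.4% (336 of 2335) from 4 to 5. It was 7.99% (98 of 1227) from 5 to 6, 3.95% (28 of 709) from 6 to 8 and 0.538% (1 of 186, interval 0.0136 to 2.96) at 8 and above. By −log10 q the drop was steady, with 27.4% (60 of 219) alone under 2, 19.5% (146 of 748) from 2 to 3, 17.6% (422 of 2396) from 3 to 5, 9.14% (260 of 2844) from 5 to 10 and 2.15% (27 of 1254) at 10 and above.

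The level of the HaloTag-only control bears on how fold and pileup relate. It was worked out for each peak from its pileup and fold, and its lowest value, 1.87 fragments, equals the tags of the library times their fragment length over the effective genome size. A peak at that level has the genome's average as its control, and its fold takes a fixed step with each fragment. Of the 915 regions, 245 (26.8%) sat at this lowest level, against 20.9, 23.8 and 14.9% of CopiaMBD1 peaks shared with CopiaMBD2 only, with CopiaMBD3 only and with both. Their median control level was 1.15 times the lowest, against 1.40, 1.25 and 1.61 times in those sets, and 19 of them were at 5 times the lowest or more, against 443 of the 4888 shared with both. Of the regions of CopiaMBD2 alone and CopiaMBD3 alone, 21.7 and 23.7% sat at the lowest level of their own lists.

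Among the 1344 CopiaMBD1 peaks at the lowest control level, the share that was alone followed the pileup. It was 35.8% (48 of 134, interval 27.7 to 44.6) at 8 or 9 fragments, folds of 3.14 and 3.48. It was 25.1% (126 of 502, 21.4 to 29.1) at 10 to 12 fragments and 14.3% (56 of 391, 11.0 to 18.2) at 13 to 15. It was 6% (15 of 250, 3.40 to 9.70) at 16 to 21 fragments. Of the 67 peaks with 22 to 38 fragments none was alone. A limit of 3 counts allows a share of up to 4.48%, and the exact interval reaches 5.36%. The share fell from bin to bin at one fixed control level, but not at every single pileup: it was 27.1% (52 of 192) at 12 fragments and 19.2% (32 of 167) at 11. At the same lowest level of their own lists, CopiaMBD2 and CopiaMBD3 peaks were called from a pileup of 7 fragments.

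**Figure D2:**
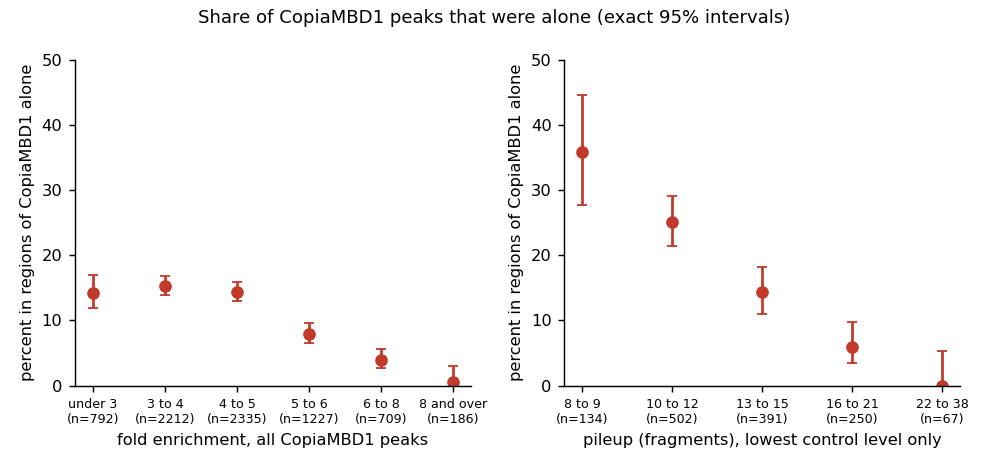
Percent of CopiaMBD1 peaks that lie in regions of CopiaMBD1 alone (y axis, points with exact 95% intervals) by fold enrichment over all 7461 peaks (left) and by pileup over the 1344 peaks at the lowest control level (right), with the number of peaks under each bin. The share is near 15% up to a fold of 5 and 0.538% at 8 and above, and it runs from 35.8% at 8 to 9 fragments to 0 of 67 peaks at 22 fragments and more.

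**Figure D3:**
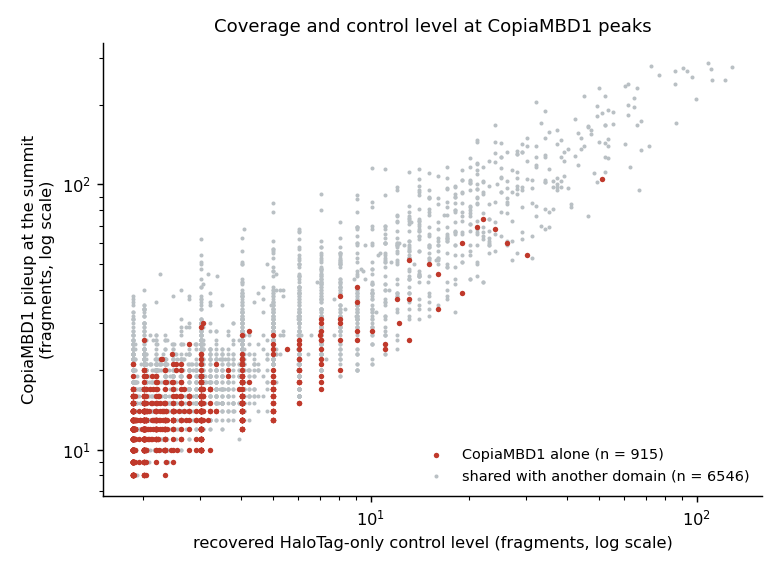
Pileup of each native CopiaMBD1 peak (y axis, fragments, log scale) against the recovered HaloTag-only control level at its summit (x axis, fragments, log scale), with the 915 peaks alone in red and the 6546 shared with another domain in grey. The red points gather where pileup and control level are both low, most of them between 8 and 20 fragments. Grey points also reach down to 8 fragments.

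In the lists of CopiaMBD2 and CopiaMBD3, too, peaks that were alone had a lower median fold. The 4031 regions of CopiaMBD2 alone had a median fold of 4.19, against 5.37 for CopiaMBD2 peaks in regions of all 3 domains, and the 5993 regions of CopiaMBD3 alone had 4.73, against 6.42. Folds are set side by side here within each list and not between lists.

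The share of a list that was alone moved with the length of the lists. Of CopiaMBD1 peaks 12.3% were alone, against 28.8% of CopiaMBD2 peaks and 38.1% of CopiaMBD3 peaks. The CopiaMBD2 and CopiaMBD3 lists were then cut to their 7461 peaks of highest −log10 q. The CopiaMBD1 list, already of that length, was kept whole, so its number of peaks alone could only stay or rise. With these lists, 2307 CopiaMBD1 peaks were alone, or 30.9% (29.9 to 32.0). The share was 28.5% (27.5 to 29.6) for CopiaMBD2 and 32.5% (31.5 to 33.6) for CopiaMBD3. Those 2307 hold all 915 regions described here, as they must, because removing partner peaks cannot give a peak a partner. The other 1392 CopiaMBD1 peaks had only partner peaks that ranked too low in their own lists to be kept. By the rule, the 915 are the CopiaMBD1 peaks without a partner in the whole lists.

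The 8 strongest regions of CopiaMBD1 alone ranked from 99 to 390 among the CopiaMBD1 peaks by fold. The highest fold, 8.96, was on scaffold JH431519 (17479 to 17761), where 26 CopiaMBD1 fragments stood over a control level of 2.01, with a −log10 q of 17.1. The nearest peak of another domain, of CopiaMBD3, lay 620 bp away in a region of all 3 domains. Positions are given as the deposited lists give them, on scaffolds named JH and contigs named AFFK of a genome build that the labels and headers do not name.

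The next regions by fold had 20 to 30 fragments each. JH431957 (187215 to 187420) and JH432048 (358 to 522) both had 21 fragments over the lowest control level, a fold of 7.66 and a −log10 q of 12.5, at 8058 and 1278 bp from the nearest peak of another domain. AFFK01018902 (2345 to 2687) had 30 fragments over a control level of 3.06, a fold of 7.63 and a −log10 q of 16.6, at 640 bp from the nearest CopiaMBD3 peak. JH430149 (29022 to 29249) had 29 fragments over 3.02, a fold of 7.47 and a −log10 q of 15.8, with its nearest other native peak 17596 bp away. These sites thus range from the flank of a region bound by all 3 domains to DNA with no other call for many kilobases.

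The other 3 of the top 8 were alike in strength. JH431802 (49042 to 49333) had a fold of 7.02 from 22 fragments and lay 42629 bp from the nearest other native peak. JH431932 (149296 to 149457) had a fold of 6.99 from 22 fragments, and a region of CopiaMBD2 and CopiaMBD3 lay 355 bp away. AFFK01013439 (113 to 335) had a fold of 6.97 from 20 fragments, with a region of CopiaMBD1 and CopiaMBD2 at 229 bp and no CopiaMBD3 peak on the contig. Of these 8 regions, 6 were on scaffolds and 2 on contigs.

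High significance with a modest fold was found where the control was also deep. Contig AFFK01007248 (88 to 298) had 74 CopiaMBD1 fragments over a control level of 22.1, a fold of only 3.24 and a −log10 q of 14.6. AFFK01008749 (629 to 788) was alike, with 69 fragments over 21.1, a fold of 3.16 and a −log10 q of 13.02. AFFK01014137 (1580 to 1725) differed, with 25 fragments over 2.77, a fold of 6.89 and a −log10 q of 12.9. None of these 3 contigs held another native peak of any domain.

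The widest regions were on scaffolds. JH432108 (179316 to 179974) was 659 bp wide, with a fold of 6.07 and the nearest peak of another domain 4048 bp away. JH431260 (32087 to 32685) was 599 bp wide, with a fold of 4.31 and a CopiaMBD2 peak at 129 bp. JH431093 (74658 to 75170) was 513 bp wide, with a fold of 6.27 and a CopiaMBD3 peak at 1412 bp. Their pileups were 21, 14 and 17 fragments, against a median of 13 over the 915 regions. Their folds were also above the median of 4.02, though the order by width was not the order by fold or pileup.

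The rule separates peaks that touch another domain's peak from those that stop just short of one. Just inside it, AFFK01016813 (2093 to 2237, fold 3.48) was 2 bp from a CopiaMBD2 peak of fold 3.98, JH432116 (769309 to 769563, fold 4.88) was 3 bp from a CopiaMBD2 peak of fold 3.29, and AFFK01020674 (26043 to 26307, fold 3.56) was 8 bp from a CopiaMBD3 peak of fold 3.98. Just outside it, the CopiaMBD1 peak on AFFK01014524 (11458 to 11616, fold 4.53) shared 3 bp with a CopiaMBD3 peak, and those on JH431785 (36886 to 37032, fold 2.79) and JH431882 (1361 to 1594, fold 2.42) shared 4 bp with a CopiaMBD3 and a CopiaMBD2 peak. Few peaks were that close to the border, with 12 of the 915 at most 20 bp from another domain's peak and 17 of the 6546 shared peaks overlapping one by at most 20 bp.

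Many of the regions lay close to, but not at, called sites of the other domains. Another domain's peak was within 100 bp of 72 of them (7.87%, 6.21 to 9.81), within 500 bp of 286 (31.3%, 28.3 to 34.4), within 1 kb of 426 (46.6%) and within 10 kb of 726 (79.3%). The median distance was 876 bp (313 to 2541) over the 793 regions that had such a peak on their sequence. The other 122 (13.3%) were on sequences with no CopiaMBD2 or CopiaMBD3 peak at all.

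Sites of both other domains were about as near. The median distance was 1411 bp to the nearest CopiaMBD2 peak and 1264 bp to the nearest CopiaMBD3 peak, each over 759 regions. A CopiaMBD2 peak was within 500 bp of 200 regions and a CopiaMBD3 peak of 206. Another CopiaMBD1 peak, shared or not, was within 500 bp of 125 regions (13.7%).

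The same distances can be given for the other single-domain classes. Within 100 bp the share was 7.87% (6.21 to 9.81) for CopiaMBD1 alone, against 6.38% (5.64 to 7.17) for CopiaMBD2 alone and 4.67% (4.15 to 5.24) for CopiaMBD3 alone. For regions of CopiaMBD2 alone, 29.2% (27.8 to 30.6) had another domain's peak within 500 bp and the median distance was 974 bp. For regions of CopiaMBD3 alone these values were 25.7% (24.6 to 26.9) and 1154.5 bp. The share was highest for CopiaMBD1 alone at both distances. These intervals cover counting error only and do not test the classes against each other. The peaks that can be met also differ in number, since a CopiaMBD1 region is measured against the 2 longer lists, and the part of that in the difference was not tested.

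**Figure D4:**
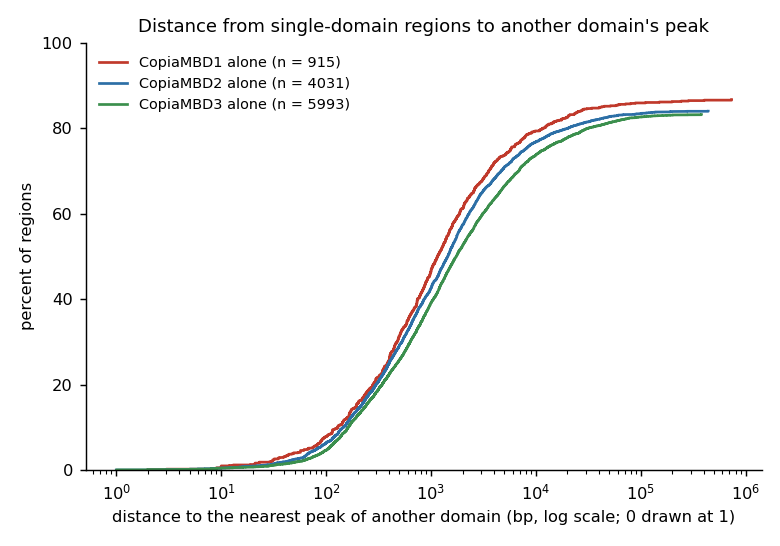
Cumulative percent of regions (y axis) by distance to the nearest native peak of another domain (x axis, bp, log scale) for regions of CopiaMBD1 alone (red), CopiaMBD2 alone (blue) and CopiaMBD3 alone (green). The curve of CopiaMBD1 alone runs above the others from about 100 bp on, the curves pass 500 bp at 31.3, 29.2 and 25.7%, and they stop below 100% because some sequences hold no peak of another domain.

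The neighbours of these regions were of all kinds. Of the 810 regions with another native region on their sequence, the nearest was a region of all 3 domains in 136 cases (16.8%), of CopiaMBD3 alone in 228 (28.1%), of CopiaMBD2 alone in 162 (20%) and of CopiaMBD2 and CopiaMBD3 in 154 (19.0%). Over all 21205 native regions these classes made up 21.5, 28.3, 19.0 and 19.1%. Another region of CopiaMBD1 alone was nearest in 53 cases (6.54%), and such regions are 4.32% of all.

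Regions near and far from other domains' sites differed little in strength. Median fold was 4.004 (3.48 to 4.60) in the 286 regions within 500 bp of another domain's peak, 4.18 (3.48 to 4.60) in the 440 between that and 10 kb, 3.90 (3.48 to 4.32) in the 67 beyond 10 kb and 4.08 (3.25 to 4.88) in the 122 with none on the sequence. All 4 interquartile ranges overlapped. The most isolated regions by distance were of middling or low strength. JH431446 (23766 to 23998, fold 3.24) had no other native region within 734593 bp, JH432114 (1254591 to 1254735, fold 4.31) none within 401367 bp and JH431527 (25986 to 26174, fold 4.31) none within 285759 bp. The regions on JH431446 and JH431527 lie near the start of their scaffolds, so these distances run toward the other end only.

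The 915 regions were spread over many sequences. They lay on 727 of the 6071 sequences that held a peak of any list, with 588 sequences holding 1 of them, 109 holding 2 and 30 holding 3 or more. On 113 sequences, 98 of them contigs, they were the only native regions, 122 in all.

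AFFK contigs held 285 of the 915 regions, or 31.1% (28.2 to 34.3). The share was 42.9% (41.5 to 44.4) for regions of all 3 domains, 41.4% (38.1 to 44.7) for regions of CopiaMBD1 and CopiaMBD2, and 31.7% (28.5 to 35.1) for regions of CopiaMBD1 and CopiaMBD3. Regions of CopiaMBD2 alone had 33.3% (31.8 to 34.8) and of CopiaMBD3 alone 30.9% (29.8 to 32.1) on contigs, so the single-domain classes were close to each other. Regions of CopiaMBD2 and CopiaMBD3 had 36.3% (34.8 to 37.8). Every class of native region thus had between 30.9 and 42.9% on contigs, and CopiaMBD1 alone was near the low end. AFFK contigs made up 10.4% of the 125.1 Mb spanned by peaks. The span counts only sequences that hold a peak, each up to the end of its last peak and not over its full length. Regions of CopiaMBD1 alone had a median fold of 3.98 on contigs and 4.08 on scaffolds, and a median width of 164 and 165 bp.

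The sequence with most of these regions was the scaffold JH432010, with 9 among 48 native regions up to position 1290168. Their folds ran from 3.11 to 6.39, the highest at 712182 to 712414 with 19 fragments, and the nearest peak of another domain was 520 to 24613 bp away. The scaffold held 6 further regions with a CopiaMBD1 peak, 4 of them of all 3 domains, and 33 without one.

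On the scaffold JH431669, CopiaMBD1 and the other domains were called at wholly separate places. Its 5 CopiaMBD1 peaks were all alone, at folds of 3.38 to 3.65 and 9 to 16 fragments, and lay 4294 to 58055 bp from the nearest of its 11 regions of the other domains. JH431734 also held 5 regions, at folds of 3.15 to 4.32 and 84 to 24968 bp from another domain's peak, among 46 native regions. On the contig AFFK01013957, the 5 regions among 27 had folds of 3.14 to 5.70 and lay 313 to 3487 bp from another domain's peak. JH429753, with 4 regions among 15, came next by name among 7 sequences with 4.

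Amplified-DNA libraries were not used to choose the regions, and almost none of the regions had a peak there. The amplified-DNA peak lists were short, with 358 peaks for CopiaMBD1, 133 for CopiaMBD2 and 169 for CopiaMBD3. The part of list length in the low overlap was not tested. An amplified-DNA peak of CopiaMBD1 overlapped 2 of the 915 regions (0.219%, 0.0265 to 0.787), against a background of 0.207% over all 21205 native regions and 20 of 6209 (0.322%, 0.197 to 0.497) for regions of CopiaMBD1 with another domain. None overlapped an amplified-DNA peak of CopiaMBD2, which allows a share of up to 0.328%, against 0.156% over all native regions. An amplified-DNA peak of CopiaMBD3 overlapped 1 region (0.109%, 0.00277 to 0.607), against 0.250% over all native regions. The CopiaMBD1 share was at the background, so it is no result about these regions.

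Taking the 3 amplified-DNA lists together, 3 of 915 regions overlapped a peak (0.328%, 0.0677 to 0.955), against 0.566% over all native regions. For regions of all 3 domains the count was 56 of 4556 (1.23%, 0.930 to 1.59), for CopiaMBD2 alone 14 of 4031 (0.347%, 0.190 to 0.582) and for CopiaMBD3 alone 13 of 5993 (0.217%, 0.116 to 0.371). Regions of CopiaMBD1 alone were narrower, with a median of 165 bp against 355 bp for regions of all 3 domains, and the part of width in this difference was not tested. Counting peaks up to 500 bp away gave 3 regions of CopiaMBD1 alone near a CopiaMBD1 peak (0.328%, against 0.373% over all native regions) and 2 near a CopiaMBD2 peak (0.219%, against 0.231%). Near a CopiaMBD3 peak there were 7 (0.765%, 0.308 to 1.57), against 0.377% over all native regions, and this difference was not tested.

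**Figure D5:**
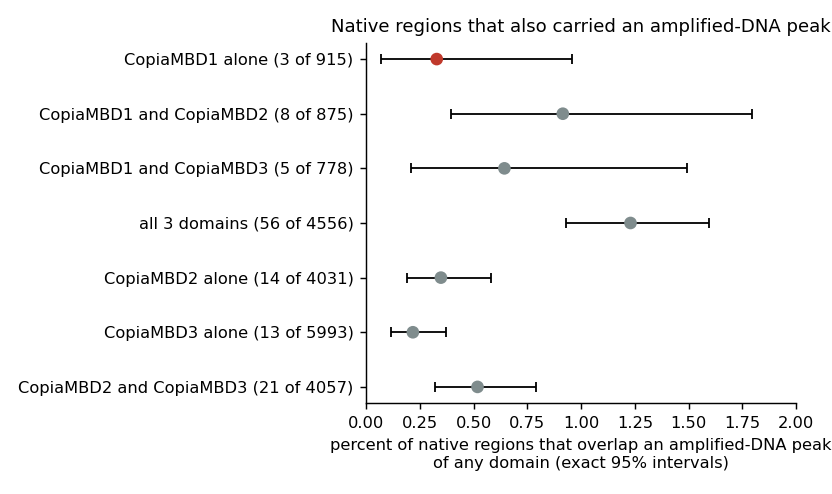
Percent of native regions that overlap an amplified-DNA peak of any domain (x axis, points with exact 95% intervals) for each class of native region (y axis, with counts), regions of CopiaMBD1 alone at the top in red. Regions of CopiaMBD1 alone have 0.328%, with an interval that overlaps those of the other single-domain classes, and regions of all 3 domains have 1.23%.

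The 3 regions with an amplified-DNA peak were unlike each other. On the contig AFFK01013282 (1026 to 1273), CopiaMBD1 had 50 fragments over a control level of 15.1 on native DNA, a fold of 3.17, and 114 fragments over 40.8 on amplified DNA, a fold of 2.75 and a −log10 q of 15.4. The 2 summits were 8 bp apart, and the control there was 8.07 times the lowest on native DNA and 14.9 times on amplified DNA. The part of the raised control in these calls was not tested.

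On the scaffold JH432140 (13151 to 13331), CopiaMBD1 had 16 fragments over the lowest control level on native DNA, a fold of 5.92. On amplified DNA it had 26 fragments over 5.97, a fold of 3.87, with the summit 24 bp away. This was the one region at the lowest native control level where CopiaMBD1 was called on both kinds of DNA. On JH430672 (7087 to 7239), CopiaMBD1 had 11 fragments and a fold of 4.18 on native DNA, and the amplified-DNA peak was one of CopiaMBD3, with 12 fragments, a fold of 3.47 and 30 bp in common. A native CopiaMBD3 peak lay 13 bp from that region.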

How the data were processed

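Peak lists of 3 CopiaMBD domains on native and on amplified DNA were used, 6 lists of 1 library each, grouped by sample title. Per the file headers, the authors ran MACS2 (version 2.1.0.20150731, q-value limit 0.05) on each domain against the matching HaloTag-only library, sampled the larger library down, kept 1 tag per position and set an effective genome of 173599458 bp. Bowtie2, Bowtie, BS-Seeker2, fastp and CASAVA 1.8.2 are listed too, per the submitters' processing notes. The aligner settings and genome build are not given in the sources used here. The deposited pileup is a coverage signal with no scaling to a common depth. Fold enrichment is a deposited ratio of pileup + 1 to control + 1, and −log10 p and −log10 q are deposited per summit. The headers name 1000 and 10000 bp as the range for the local control. Not every control level comes from that range, since 1344 CopiaMBD1 peaks had the genome's average as their control. The source of each other control level was not worked out.

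Native peaks were merged on at least 1 shared bp, a step tested on simulated data (scipy 1.17.1, pandas 2.3.3 and numpy 2.4.6 under Python 3.11.15, with matplotlib 3.10.9 for plots). The control level was recovered as (pileup + 1) / fold − 1. Shares carry exact Clopper-Pearson 95% intervals, and a count of 0 is given a limit of 3 counts. With 1 library per group no test was run. Named regions were taken by rank of fold, q, width and distance, and by overlap with amplified-DNA peaks. The regions and these choices were made with earlier results of these data known. The MethylC-seq sample was not analysed here.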

Additional observations from a re-analysis of the deposited data

How the results depend on the processing

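Regions of CopiaMBD1 alone numbered 915 and depended most on which peaks were listed. Their number was 495 with a −log10 q of at least 5 in all lists, 112 at 10, 287 with that limit of 5 for CopiaMBD1 only, 387 at a fold of at least 5, 2307 with lists cut to equal length and 247 on sequences of at least 100 kb. Sequence length was taken as the end of the last peak of any list. A longer sequence with peaks only near its start was thus left out of that setting. The number of regions was 629 to 1133 under the 5 other settings. As a share of CopiaMBD1 peaks, 12.3% became 11.3 and 8.43% when regions with another domain's peak within 100 and 500 bp were left out. It became 15.04% when a shared peak had to be covered over 50% of its length and 15.2% when its summit had to be covered. It became 8.93% at a −log10 q of at least 10, 7.003% with the limit of 5 for CopiaMBD1 only, 18.2% at a fold of at least 5, 30.9% with equal lists, 16.1% on sequences of at least 100 kb and 13.7% with the control under 3 times its lowest. The contig share of 31.1% became 34.3 and 45.5% where −log10 q was 5 or 10 and above in all lists, 35.9% at a fold of at least 5, and 1.62% on sequences of at least 100 kb, which are almost all scaffolds. The amplified-DNA share for CopiaMBD1 was 0% of 112 and 0% of 247 regions under the limit of 10 and on long sequences, and 0.116 to 0.697% elsewhere. The median fold of 4.02 became 4.98 at a −log10 q of at least 5 in all lists and for CopiaMBD1 only, 6.64 at 10 and 5.57 at a fold of at least 5, as limits on strength must make it. No paired analysis was possible because each group held 1 library.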
